A study of Mus musculus with 8 samples.

Results

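The endothelial and angiogenesis genes described here are 37 genes of the deposited count table, taken by their symbols: markers of vascular endothelium, ligands and receptors of VEGF and angiopoietin signaling, and peptides and receptors that act on vessels. The table lists 32531 gene symbols, and all 37 members passed the filter on low counts, among 15082 genes tested. RNA was sequenced from isolated pancreatic islets of 4 control mice (RIP-Cre+, Rosa26-rtTA+, tetO_NICD-) and 4 β-tetO-NICD mice (RIP-Cre+, Rosa26-rtTA+, tetO_NICD+). The background was a mixture of BALB/c, 129X1/SvJ and C57BL/6J in both groups, both received doxycycline (Dox) for 8 weeks, and the age of the mice is not given in the sources used here. In β-tetO-NICD mice, Cre expressed from an insulin promoter permits rtTA expression, and Dox then switches on NICD, the intracellular domain of Notch1 that signals without a ligand. The transgene is therefore directed to β cells, and the endothelial cells of the islet were measured only as part of the whole islet, together with β cells, other endocrine cells and any exocrine tissue carried along. The comparison addresses whether genes of the islet vasculature differ when Notch is active in β cells.

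Islets are supplied by a dense network of fenestrated capillaries. β cells secrete VEGF-A, which acts on the receptor tyrosine kinases Kdr and Flt1 of endothelial cells and maintains that network, whereas VEGF-C acts mainly on Flt4 and is best known as the growth factor of lymphatic vessels. Angiopoietins act on the receptor Tek to stabilize or loosen vessels, and Notch signaling within endothelial cells restrains sprouting.

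Vegfc was the only one of the 37 members that passed the test, and it was 3.08-fold higher in β-tetO-NICD islets (log2 fold change 1.62 ± 0.23 SE, adjusted p = 0.00384, edgeR quasi-likelihood test). The other VEGF ligands, the 3 VEGF receptors, the angiopoietins and their receptors, and the 12 endothelial surface genes and 5 transcription factors did not pass. The 1 call among 37 members is 2.70% of them, against a background of 6.76% of all tested genes (1020 of 15082, with 4.19% higher and 2.57% lower). Of the members, 19 had a positive and 18 a negative log2 fold change, with a median of 0.01 against 0.00 over all genes tested. With an offset that removes each library's trend of counts on transcript length, 22 were positive and the median was 0.13, also against 0.00. The same single call was made by limma-voom (against 7.18% of all genes). Upper-quartile normalization gave 3, Vegfc, Angptl4 and Egfl7 (against 7.68% of all genes), and DESeq2 called 5 members, Angptl4, Egfl7, Sox18, Thbs1 and Vegfc (against 18.2% of all genes). An unadjusted p under 0.05 was reached by 10 members, 8 higher and 2 lower (27.0% against 31.6% of all genes).

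Upstream sequence is shown for Vegfc, the ligand that changed, and for Vegfa, the most abundant VEGF ligand, because NICD acts through the DNA-binding factor RBPJ, whose core motif is TGGGAA. Each sequence is the 250 bases before a transcription start in RefSeq (GRCm38.p6), printed 5′ to 3′ on the strand of the gene, with matches to TGGGAA or its reverse complement in capitals. The Vegfc sequence spans chr8:54077282-54077531 on the plus strand, and the Vegfa sequence chr17:46032378-46032627 on the minus strand.
Vegfc: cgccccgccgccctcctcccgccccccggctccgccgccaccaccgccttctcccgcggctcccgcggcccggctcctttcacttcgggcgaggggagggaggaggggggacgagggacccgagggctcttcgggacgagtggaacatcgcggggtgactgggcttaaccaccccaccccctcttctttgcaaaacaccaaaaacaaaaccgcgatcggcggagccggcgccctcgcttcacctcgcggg
Vegfa: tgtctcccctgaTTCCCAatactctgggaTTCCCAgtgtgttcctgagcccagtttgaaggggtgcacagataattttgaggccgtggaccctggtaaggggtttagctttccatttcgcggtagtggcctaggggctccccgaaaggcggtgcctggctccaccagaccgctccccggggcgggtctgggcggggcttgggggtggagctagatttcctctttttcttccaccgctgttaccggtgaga
The Vegfc window held no match, and the Vegfa window shown held 2, both on the strand opposite to the gene. A second Vegfa start in the table, with its window at chr17:46025164-46025413, also held 2, both on the strand of the gene. Of the 37 members, 19 had an upstream window in the table, and some had several, 25 windows in all. Of these windows 6 (24%) held a match, in Egfl7, Erg, Kdr, Tie1 and Vegfa, as did 7094 (21.6%) of all 32851 windows of this length. A match is a description of the letters and not a binding site, and binding was not measured.

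The library totals lay between 21701223 and 26413146 counts, so that a floor of 3 counts equals at most 0.151 CPM (counts scaled to the library total and TMM factor), and all 37 members had mean levels above it in both groups. Notch1 rose from 56.8 ± 10.7 CPM in controls to 1029 ± 331 CPM (SD, n = 4), and the Notch targets Hes1, Hey1, Heyl and Hes5 were higher as well, so the libraries matched their labels. The β-tetO-NICD columns are numbered 1, 2, 4 and 5 and are named so here, whereas the mice are labelled 1 to 4. The study's methods name male mice, but the Y-linked gene Eif2s3y had at most 1 count in 5 libraries (controls 1 and 3, β-tetO-NICD 1, 2 and 4) and at least 1300 in the others. The libraries also differed in how counts followed transcript length. Spearman's rho between a gene's deviation from its mean and the length of its longest transcript was 0.418 to 0.497 in 4 libraries (controls 1, 2 and 4, β-tetO-NICD 1), but -0.522 to -0.176 in control 3 and in β-tetO-NICD 2, 4 and 5. Length-corrected values are therefore given beside results that they move, and a covariate for the trend is taken up with the members' lengths.

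Among the VEGF ligands, Vegfc was at 2.86, 3.29, 3.01 and 1.99 CPM in controls 1 to 4, from 62, 78, 76 and 49 counts. In β-tetO-NICD libraries 1, 2, 4 and 5 it was at 7.41, 10.8, 8.46 and 7.60 CPM, from 156, 248, 255 and 151 counts. The groups did not overlap, with the lowest β-tetO-NICD library at 7.41 and the highest control at 3.29 CPM, and means of 2.79 ± 0.562 and 8.57 ± 1.57 CPM (SD, n = 4). Leaving out any 1 library kept the call (log2 fold change 1.49 to 1.72, adjusted p 0.00311 to 0.0185). With the offset for transcript length the log2 fold change was 1.48 (adjusted p = 0.00227). Among the 5 libraries with at most 1 count of Eif2s3y it was 1.61 and the adjusted p was 0.0697 (2 controls against 3 β-tetO-NICD, where 0.719% of genes were called). Vegfc lies on chromosome 8 at 54077606 to 54187096 (plus strand, GRCm38), and its longest annotated transcript has 2449 bases.

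Vegfa, the main growth factor of islet capillaries, was the most abundant ligand. It measured 286, 263, 225 and 234 CPM in controls 1 to 4, and 255, 213, 209 and 164 CPM in libraries 1, 2, 4 and 5 of β-tetO-NICD islets. The groups overlapped, since β-tetO-NICD library 1 lay above controls 3 and 4, and the log2 fold change of -0.26 ± 0.17 did not pass (adjusted p = 0.302). Vegfb, a ligand of Flt1, was at 29.3 ± 7.52 CPM in controls and 25.5 ± 1.59 CPM in islets of β-tetO-NICD mice (SD, n = 4), with a log2 fold change of -0.20 (edgeR adjusted p = 0.462), which was -0.59 with the length offset (adjusted p = 0.0844). Placental growth factor (Pgf), which also binds Flt1, was at 11.5, 12.9, 11.9 and 4.30 CPM in controls and at 16.9, 11.3, 15.9 and 21.1 CPM in β-tetO-NICD libraries. Control 4 was the lowest for Pgf, β-tetO-NICD library 2 lay just below the other 3 controls, and the log2 fold change of 0.68 ± 0.33 did not pass (adjusted p = 0.182).

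**Figure D1:**
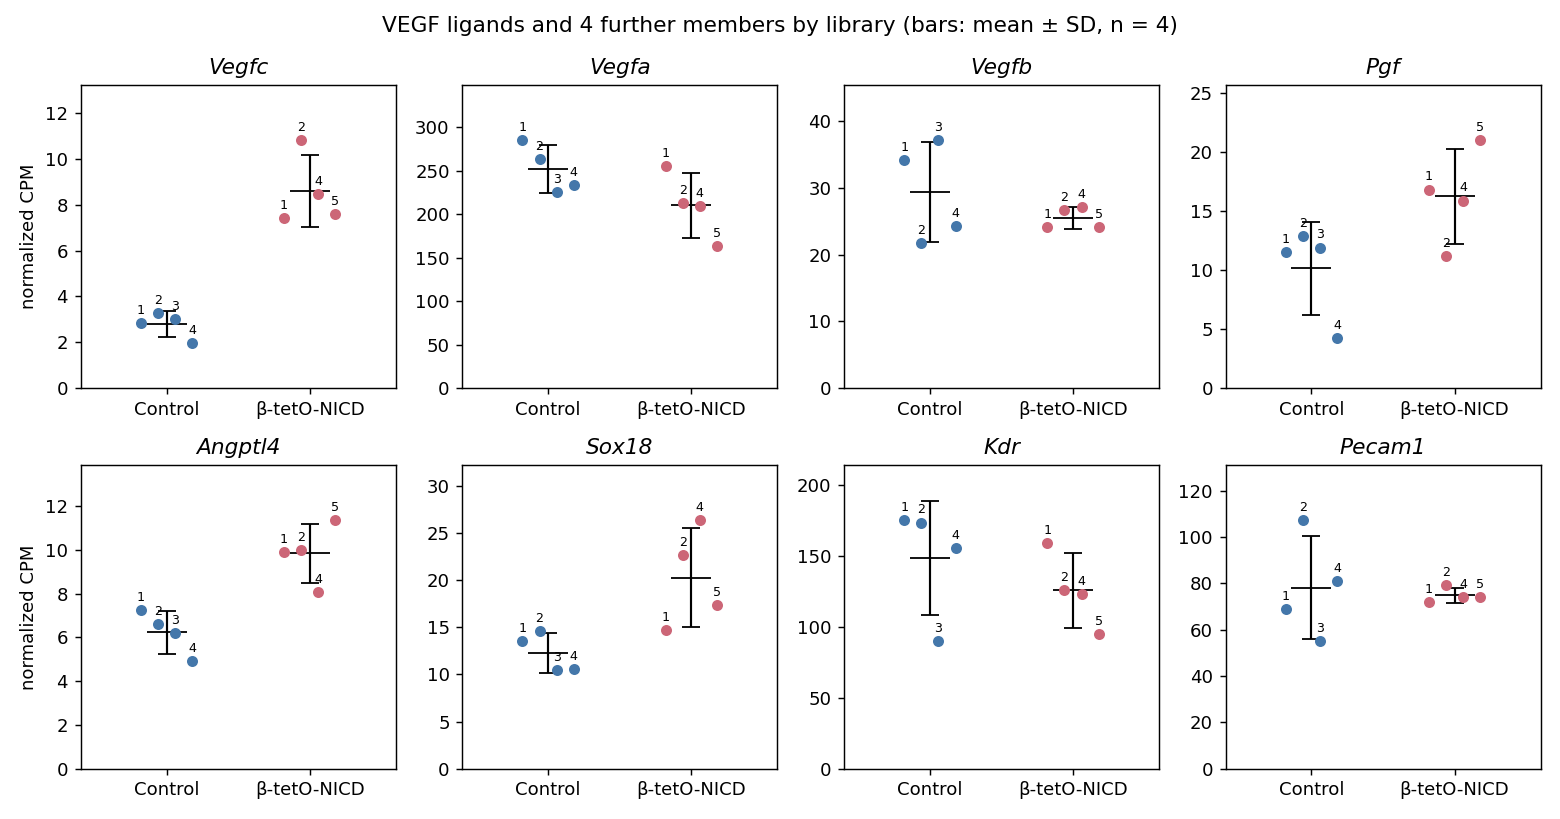
Normalized CPM of the 4 VEGF ligands and of Angptl4, Sox18, Kdr and Pecam1 in each library (points, numbered as the libraries are), with bars for the mean ± SD of 4 libraries and a vertical axis from 0 in each panel. Vegfc, Angptl4 and Sox18 show no overlap between controls and β-tetO-NICD, whereas Vegfa, Kdr and Pecam1 overlap.

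The VEGF ligands were also compared within each library as shares of their summed level per kilobase of longest transcript, with Figf (VEGF-D) as the fifth ligand. Vegfc took 1.003%, 1.33%, 1.21% and 0.903% of this sum in controls 1 to 4 and 2.901%, 4.75%, 3.69% and 3.83% in libraries 1, 2, 4 and 5 of β-tetO-NICD islets. Every β-tetO-NICD share was above every control share, with means of 1.11% ± 0.192 and 3.79% ± 0.758 (SD, n = 4). Vegfa remained the largest share in both groups, at 71.5% ± 5.23 in controls and 65.2% ± 5.12 in β-tetO-NICD. Vegfb took 22.3% and 21.5%, Pgf 4.71% and 8.57%, and Figf 0.345% and 0.940%, in the same order. Vegfc was therefore a minor ligand of the islet in both groups. These shares depend on the annotated lengths and were not tested separately.

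The 3 VEGF receptors had lower means in β-tetO-NICD islets, none passed the test, and for Kdr and Flt1 the sign turned with the length offset. Kdr, the main signaling receptor for VEGF-A, was at 175, 173, 90.0 and 155 CPM in controls 1 to 4 and at 159, 126, 123 and 94.6 CPM in libraries 1, 2, 4 and 5 of β-tetO-NICD islets. Control 3 was the lowest of all 8 libraries and β-tetO-NICD 1 lay among the other controls. The log2 fold change was -0.24 ± 0.24 (adjusted p = 0.490), and 0.09 with the length offset. Flt1, which binds VEGF-A tightly and also exists as a soluble decoy, was at 143, 152, 73.6 and 128 CPM in controls and at 129, 71.9, 92.1 and 96.8 CPM in β-tetO-NICD libraries. Control 3 was again close to the lowest library, and the log2 fold change of -0.35 ± 0.25 (adjusted p = 0.347) became 0.06 with the offset. Flt4, the receptor of VEGF-C, was at 14.2 ± 3.54 CPM in controls and 10.4 ± 3.69 CPM in islets of β-tetO-NICD mice (SD, n = 4), with a log2 fold change of -0.45 (edgeR adjusted p = 0.301) and of -0.12 with the offset. The higher Vegfc stood beside a receptor that did not pass in either direction.

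Of the 6 angiopoietins, Tie receptors and angiopoietin-like genes none passed, against 6.76% of all genes. Angptl4, an inhibitor of lipoprotein lipase that is induced by fasting and hypoxia, came closest. It was at 7.24, 6.62, 6.21 and 4.91 CPM in controls 1 to 4 and at 9.92, 9.99, 8.06 and 11.4 CPM in libraries 1, 2, 4 and 5 of β-tetO-NICD islets. No overlap was seen between the groups, and the log2 fold change of 0.66 ± 0.19 had an adjusted p of 0.0645. It passed with the length offset (0.67, adjusted p = 0.0416) and without β-tetO-NICD library 1 (0.65, adjusted p = 0.0381). Angpt1, the agonist of Tek, was between 0.855 and 2.15 CPM in all 8 libraries, with a log2 fold change of -0.55 (edgeR adjusted p = 0.242). Angpt2, its context-dependent antagonist, was at 10.1 ± 2.64 CPM in controls and 7.23 ± 1.93 CPM in islets of β-tetO-NICD mice (SD, n = 4), with a log2 fold change of -0.48 (edgeR adjusted p = 0.214). Tie1, an orphan receptor that modulates Tek and the most abundant of these genes per kilobase, was at 40.2, 52.4, 31.3 and 39.5 CPM in controls and at 37.8, 53.5, 39.8 and 31.1 CPM in β-tetO-NICD libraries. The groups covered nearly the same range. The log2 fold changes of Tek (-0.21, adjusted p = 0.454) and Tie1 (-0.01, adjusted p = 0.975) became -0.03 and 0.13 with the length offset, and their signs turned under some of the settings tried. Angptl2, a secreted glycoprotein, had a log2 fold change of 0.44 (edgeR adjusted p = 0.378) and ranged from 3.32 to 11.8 CPM among controls alone.

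**Figure D2:**
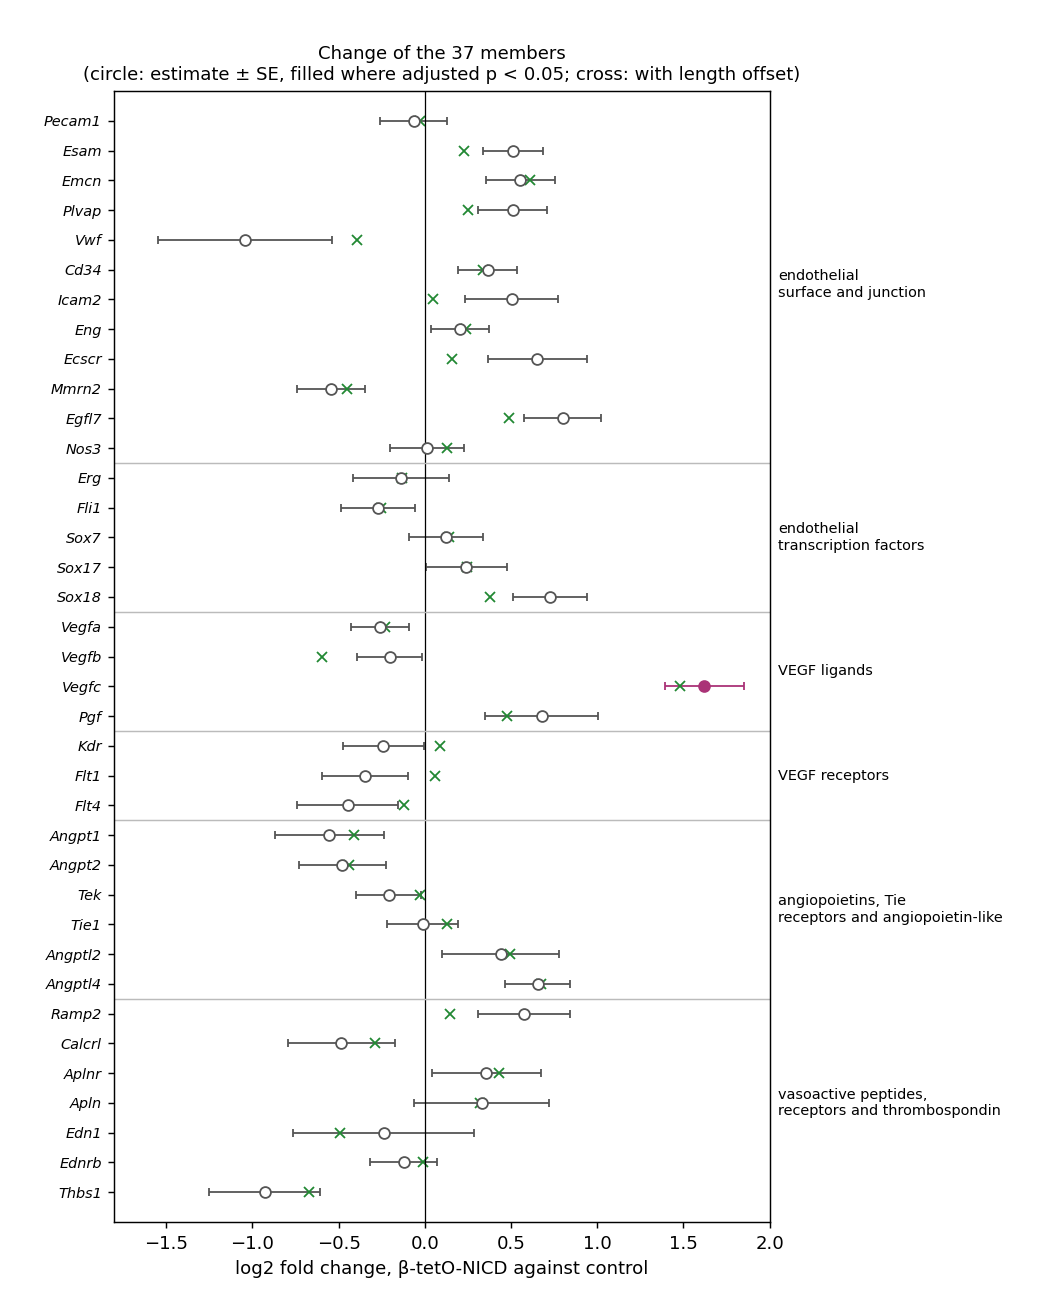
Log2 fold change of each of the 37 members, β-tetO-NICD against control, grouped by role (circles with bars of 1 SE from edgeR, filled where the adjusted p was under the threshold, and crosses for the estimate with the transcript length offset). Only Vegfc is filled, and the crosses of Kdr, Flt1 and Tie1 lie on the other side of 0 from their circles.

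The 12 endothelial surface and junction genes were all detected, which places endothelial RNA in every library. None passed the test, 9 had a positive and 3 a negative log2 fold change, and their median was 0.43 (0.19 with the length offset). Pecam1, the adhesion molecule most often used to stain endothelium, was at 69.1, 107, 55.3 and 80.9 CPM in controls 1 to 4 and at 71.8, 79.4, 74.2 and 74.1 CPM in libraries 1, 2, 4 and 5 of β-tetO-NICD islets. The β-tetO-NICD values all lay within the control range, and the log2 fold change was -0.06 ± 0.19 (adjusted p = 0.838, and -0.02 with the length offset). In bulk samples, fewer cells of a type and less RNA per cell cannot be told apart, and the same holds for more of either. Cdh5, the junctional cadherin of endothelium and no member, overlapped likewise, at 32.9 ± 11.2 CPM in controls and 26.1 ± 7.76 CPM in islets of β-tetO-NICD mice (SD, n = 4, adjusted p = 0.428).

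Plvap, which forms the diaphragms of capillary fenestrae, had the highest level per kilobase of all members in both groups (81.6 ± 10.3 in controls and 116 ± 29.2 in β-tetO-NICD, CPM per kilobase, SD, n = 4). Its CPM were 168, 186, 157 and 137 in controls 1 to 4 and 165, 301, 249 and 208 in libraries 1, 2, 4 and 5 of β-tetO-NICD islets. Libraries 2, 4 and 5 lay above every control and library 1 lay among them. The log2 fold change was 0.51 ± 0.20 (adjusted p = 0.126), 0.64 without library 1 (adjusted p = 0.0217), and 0.25 with the length offset. Egfl7, a secreted protein of endothelium whose gene contains the miRNA gene Mir126a, also had libraries 2, 4 and 5 above every control. It was at 31.2, 36.5, 30.7 and 26.3 CPM in controls and at 34.2, 61.7, 49.0 and 72.0 CPM in β-tetO-NICD libraries, with library 1 again within the control range. Its log2 fold change of 0.80 ± 0.22 had an adjusted p of 0.0597, 0.00586 without library 1 (log2 fold change 0.97), and 0.0698 with the length offset (0.49). The adhesion molecule Esam (0.51, adjusted p = 0.0958) and the sialomucin Emcn (0.55, adjusted p = 0.108) showed the same order, with library 1 within the control range and the other 3 above it. With the length offset the value was 0.23 for Esam and 0.61 for Emcn. Egfl7 shares its span with Gm20532 on the same strand and with Agpat2 on the opposite strand, and Plvap with Gtpbp3 on the opposite strand, and how the pseudoalignment divided reads among them was not tested.

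The remaining surface genes gave values without a call. Cd34, a sialomucin of capillaries, had a log2 fold change of 0.37 (edgeR adjusted p = 0.172), and the adhesion molecule Icam2 one of 0.50 (adjusted p = 0.217), which was 0.05 with the length offset. Eng, a coreceptor for TGF-β family ligands, was at 59.0 ± 12.5 CPM in controls and 68.0 ± 5.34 CPM in islets of β-tetO-NICD mice (SD, n = 4, adjusted p = 0.409). Ecscr, a small surface protein of endothelium, had a log2 fold change of 0.65 (edgeR adjusted p = 0.155), which was 0.16 with the length offset. Nos3, the endothelial nitric oxide synthase, was at 6.33 ± 1.34 and 6.38 ± 1.01 CPM (SD, n = 4), with a log2 fold change of 0.01 (edgeR adjusted p = 0.969) and of 0.13 with the offset. Mmrn2, an extracellular matrix protein of vessels, had a log2 fold change of -0.55 ± 0.20 (edgeR adjusted p = 0.109), and of the settings tried it passed only without β-tetO-NICD library 1 (-0.65, adjusted p = 0.0350).

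Vwf, the clotting factor stored in endothelium of larger vessels, varied widely among the controls. It was at 8.99, 44.3, 6.92 and 24.1 CPM in controls 1 to 4 and at 9.83, 9.86, 9.03 and 12.2 CPM in β-tetO-NICD libraries. Controls 2 and 4 were high, and controls 1 and 3 lay below every β-tetO-NICD library. The log2 fold change was -1.04 ± 0.51 (adjusted p = 0.185), and it was -0.37 without control 2 and -0.40 with the length offset. Among the 5 libraries with at most 1 count of Eif2s3y, which leave out controls 2 and 4 and β-tetO-NICD 5, it was 0.27. The fibroblast list of 7 genes was also highest in control 2 (633 CPM in sum). It was at 264 CPM in control 4, above the 139 and 121 CPM of controls 1 and 3 but below the 299.9 to 370 CPM of the β-tetO-NICD libraries. Its part in the Vwf values was not tested.

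Of the 5 endothelial transcription factors none passed. Sox18, an SRY-related factor of vascular and lymphatic endothelium, was at 13.5, 14.6, 10.5 and 10.5 CPM in controls 1 to 4 and at 14.7, 22.6, 26.4 and 17.3 CPM in libraries 1, 2, 4 and 5 of β-tetO-NICD islets. No overlap was seen between the groups, although library 1 lay next to control 2. Its log2 fold change of 0.73 ± 0.21 had an adjusted p of 0.0677, 0.0128 without library 1 (log2 fold change 0.85), and 0.272 with the length offset (0.38). Its relatives Sox7 (0.12, adjusted p = 0.706) and Sox17 (0.24, adjusted p = 0.488), and the ETS factors Erg (-0.14, adjusted p = 0.748) and Fli1 (-0.27, adjusted p = 0.393), also did not pass. Angptl4, Sox18 and Vegfc were the only members without overlap between the groups, 3 of 37 (8.11%) against 16.1% of all tested genes in either direction, or 8.21% with β-tetO-NICD higher and 7.93% with it lower.

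**Figure D3:**
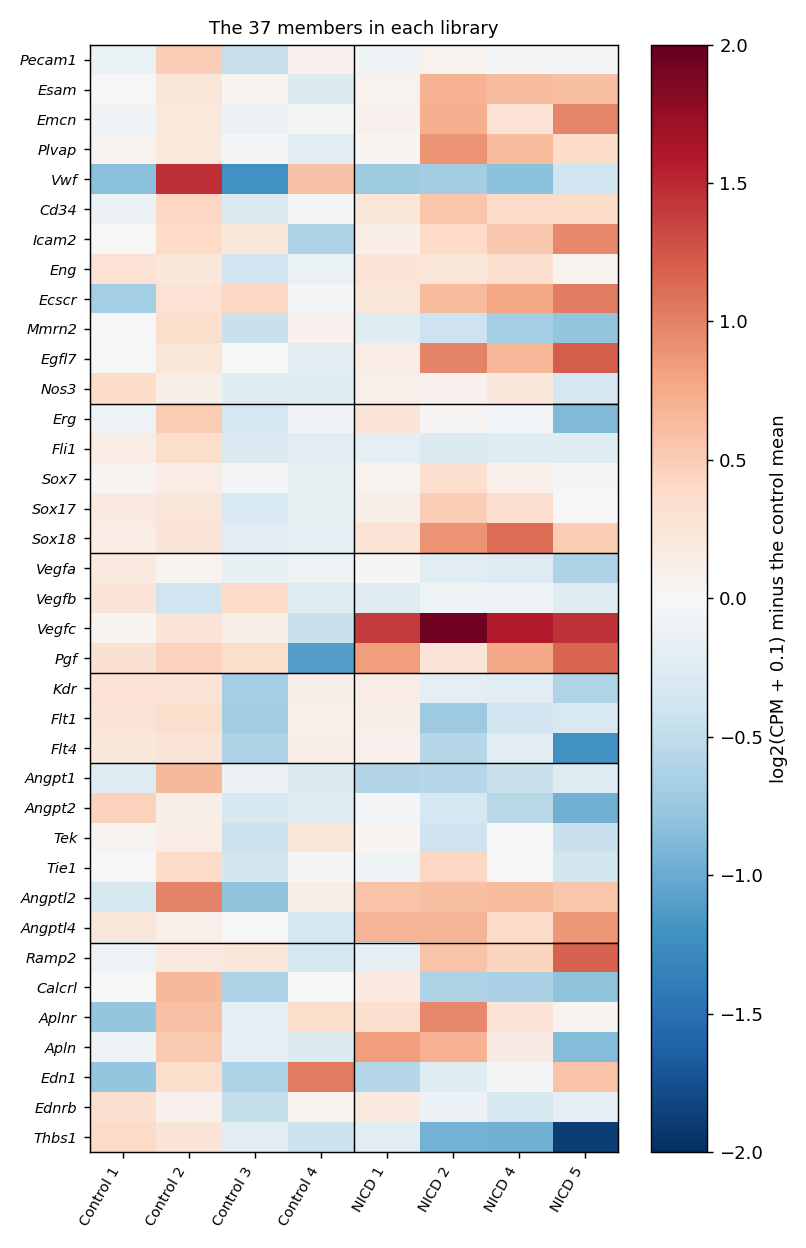
Log2(CPM + 0.1) of the 37 members in each library minus the control mean, red above and blue below, with rows grouped by role and a vertical line between controls and β-tetO-NICD. Vegfc is red in all 4 β-tetO-NICD libraries, and β-tetO-NICD 1 is paler than libraries 2, 4 and 5 for Plvap, Egfl7, Esam, Emcn and Sox18.

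Among the vasoactive peptides, their receptors and thrombospondin, Thbs1 had the largest difference. Thbs1 encodes a matrix glycoprotein that inhibits angiogenesis, and it was at 46.8, 42.8, 30.7 and 26.7 CPM in controls 1 to 4 and at 30.7, 18.5, 18.3 and 9.61 CPM in libraries 1, 2, 4 and 5 of β-tetO-NICD islets. Libraries 2, 4 and 5 lay below every control, and library 1 lay among them. Its log2 fold change of -0.93 ± 0.32 had an adjusted p of 0.0987, and it passed without library 1 (-1.24, adjusted p = 0.0122) and by DESeq2 (adjusted p = 0.0357). With the length offset it was -0.67 (adjusted p = 0.105). Ramp2, which pairs with Calcrl to form the adrenomedullin receptor, was at 11.8, 14.6, 14.9 and 10.2 CPM in controls and at 11.3, 19.0, 17.4 and 29.0 CPM in β-tetO-NICD libraries, with library 1 again within the control range. It had a log2 fold change of 0.58 (edgeR adjusted p = 0.172), and Calcrl one of -0.48 (adjusted p = 0.290), so the 2 partners differed in sign without a call for either. With the offset these became 0.15 and -0.29. Ramp2 overlaps Vps25 on the same strand, so its counts are uncertain to that extent. The apelin receptor Aplnr (0.36, adjusted p = 0.439) and its ligand Apln (0.33, adjusted p = 0.571) also did not pass. The vasoconstrictor endothelin gene Edn1 was close to the floor, between 6 and 30 counts per library, and gave -0.24 ± 0.53 (adjusted p = 0.769, and -0.49 with the offset). Its receptor Ednrb was at 16.7 ± 3.57 and 15.3 ± 2.38 CPM (SD, n = 4), with a log2 fold change of -0.12 (edgeR adjusted p = 0.680) and of -0.01 with the offset.

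Across the 37 members, the log2 fold change followed transcript length. Spearman's rho was -0.725 (Pearson's r -0.656) over the 37 genes, which are not independent replicates and share the same 8 libraries, and it was -0.486 over the 14999 tested genes with an annotated length. With the offset, which removes each library's smooth trend of deviation on length, rho was -0.373 for the members and 0.00 over all genes. Split at 3000 bases, a value chosen after the data had been seen, 9 of the 11 shorter members had a positive log2 fold change (median 0.58, and 0.23 with the offset). Of the 26 longer members 10 were positive (median -0.13, and 0.03 with the offset). The shorter members with positive values were Ecscr, Icam2, Ramp2, Sox18, Egfl7, Esam, Plvap, Pgf and Vegfc, and those with negative values were Vegfb and Edn1. With the offset, Vegfc (1.48), Angptl4 (0.67) and Emcn (0.61) had the highest values among the 37. β-tetO-NICD library 1 has the length trend of controls 1, 2 and 4, and control 3 that of the other β-tetO-NICD libraries. With that trend class as a covariate, Vegfc passed (log2 fold change 1.51, adjusted p = 0.0119) and no other member did (against 4.03% of all genes). With the offset, Vegfc and Angptl4 passed, both higher, against 5.86% of all genes higher and 4.59% lower.

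**Figure D4:**
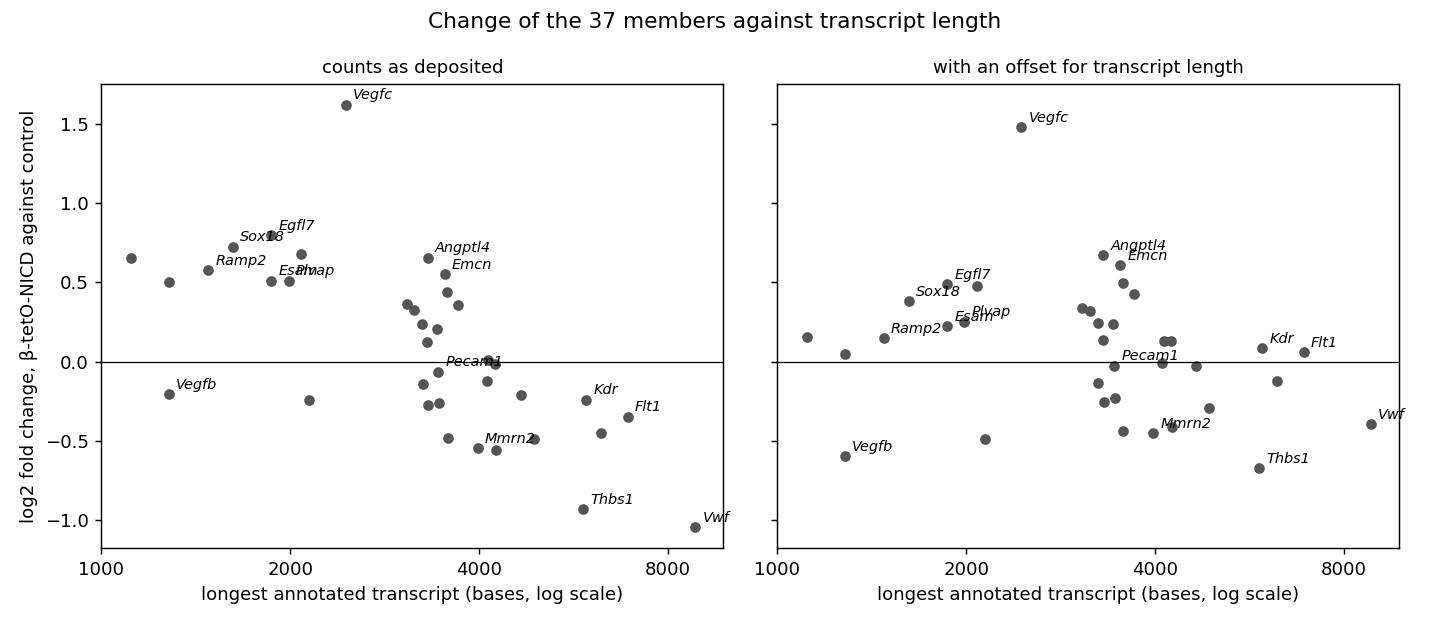
Log2 fold change of the 37 members (points) against the length of their longest annotated transcript in bases on a log scale, from the counts as deposited (left) and with the transcript length offset (right). The downward slope at left, with rho -0.725, is shallower at right (rho -0.373), and Vegfc lies above all other members in both panels.

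The number of members called depended on β-tetO-NICD library 1. Without it, 10 of 37 members passed (27.0%, against 33.2% of all genes). Angptl4, Egfl7, Emcn, Esam, Plvap, Ramp2, Sox18 and Vegfc were higher (8 of 37, 21.6%, against 16.3% of all genes), and Mmrn2 and Thbs1 were lower (2 of 37, 5.41%, against 17% of all genes). Without any other single library the count was 1, Vegfc. Library 1 was also the only β-tetO-NICD library with a positive length trend (rho 0.447, against -0.522 to -0.360 in libraries 2, 4 and 5). Without library 1, rho between the members' log2 fold change and length was -0.762, against -0.725 with it. Library 1 had the highest summed level of the 15 acinar markers, 129553 CPM, against 36138 to 85932 CPM in the other 7 libraries. With the acinar score as a covariate and library 1 kept, 1 member passed, as did 1116 of 15082 genes. The part of either feature in these counts was not tested.

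Genes of endothelium and of the same pathways that are not members were examined as lists. Of 26 further endothelial markers 1 passed (3.85% against 6.76% of all genes), and their median log2 fold change was -0.04, which was 0.29 with the length offset and 0.18 with the length-trend class. That gene was Bmx, a cytosolic tyrosine kinase of arterial endothelium. It was at 0.277, 0.928, 0.198 and 0.365 CPM in controls 1 to 4 and at 1.76, 3.10, 3.19 and 3.77 CPM in libraries 1, 2, 4 and 5 of β-tetO-NICD islets. All β-tetO-NICD libraries lay above all controls, although the control values rest on 5 to 22 counts. The log2 fold change was 2.73 ± 0.48 (adjusted p = 0.0115), and it passed with any 1 library left out and with the length offset (2.69, adjusted p = 0.00839). Bmx met the count minimum through the β-tetO-NICD libraries. In the libraries with at most 1 count of Eif2s3y it missed that minimum and was not tested. Cldn5, the tight junction protein of endothelium, was at 0.850 ± 0.364 and 1.68 ± 0.574 CPM (SD, n = 4), with a log2 fold change of 0.98 (edgeR adjusted p = 0.122) and of 0.52 with the offset.

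Of 22 further genes of the VEGF, angiopoietin, apelin, adrenomedullin and endothelin pathways, 20 were tested and 2 passed (10% against 6.76% of all genes), 1 in each direction. Angptl7, a secreted angiopoietin-like protein, fell from 44.9, 68.8, 68.4 and 116 CPM in controls 1 to 4 to 6.60, 4.84, 6.57 and 10.1 CPM in libraries 1, 2, 4 and 5 of β-tetO-NICD islets. The highest β-tetO-NICD library lay far below the lowest control, and the log2 fold change was -3.41 ± 0.33 (adjusted p = 0.000438), the largest in absolute size among all vascular genes examined here. Angptl7 lies within the span of Mtor on the opposite strand (chromosome 4, 148495183 to 148500460, GRCm38). The libraries were stranded, but the strand setting of the pseudoalignment is not given in the sources used here. Edn3, an endothelin that acts on Ednrb, was at 14.3, 14.6, 27.0 and 16.7 CPM in controls and at 43.0, 31.4, 30.4 and 38.7 CPM in β-tetO-NICD libraries. The groups did not overlap, with control 3 closest to the β-tetO-NICD level, and Edn3 rose by a log2 fold change of 0.98 ± 0.23 (edgeR adjusted p = 0.0347). The call was lost without control 1, 2 or 4 or without β-tetO-NICD 2, 4 or 5 (adjusted p at most 0.101), with the length-trend class (0.0620), with the acinar or Eif2s3y covariate (0.0526 and 0.0592), and in the 5 libraries with at most 1 count of Eif2s3y (0.76, adjusted p = 0.393). The neuropilins Nrp1 and Nrp2, coreceptors of VEGF, gave -0.31 each (adjusted p = 0.413 and 0.488), and Nrp2 0.05 with the length offset.

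**Figure D5:**
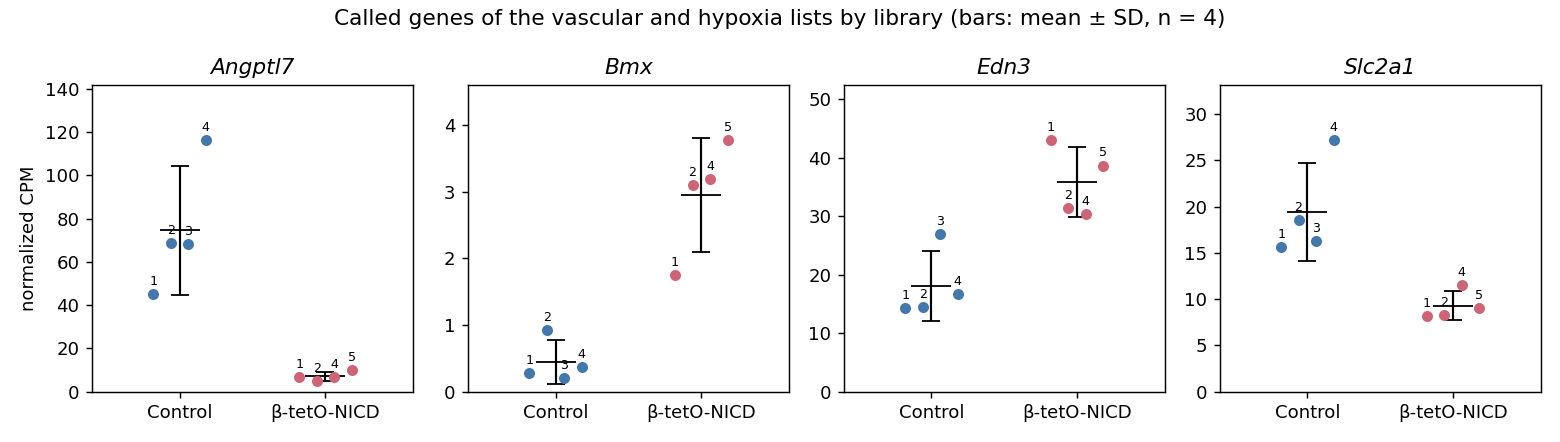
Normalized CPM of Angptl7, Bmx, Edn3 and Slc2a1 in each library (points, numbered as the libraries are), with bars for the mean ± SD of 4 libraries and a vertical axis from 0 in each panel. None of the 4 genes overlaps between controls and β-tetO-NICD, with Angptl7 and Slc2a1 lower and Bmx and Edn3 higher in β-tetO-NICD.

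Of 21 genes of the hypoxia-inducible factors and their targets, 1 passed (4.76% against 6.76% of all genes), and the median log2 fold change was -0.19. With the length offset the median was -0.09 and 3 passed, all lower (against 4.59% of all genes lower), Slc2a1, the mitophagy receptor gene Bnip3 (-0.75, adjusted p = 0.0149, from -0.46) and the mTORC1 inhibitor gene Ddit4 (-0.78, adjusted p = 0.0124, from -0.46). The glucose transporter gene Slc2a1 fell from 15.6, 18.6, 16.3 and 27.2 CPM in controls to 8.17, 8.34, 11.5 and 9.06 CPM in β-tetO-NICD libraries (log2 fold change -1.06 ± 0.22, adjusted p = 0.0202). The groups did not overlap, and the call was lost without control 2, control 4 or β-tetO-NICD 2 (adjusted p at most 0.0804), with the length-trend class (0.0603), and in the 5 libraries with at most 1 count of Eif2s3y (-0.76, adjusted p = 0.257).

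Markers of neighboring cell types were measured beside these genes. Of 12 mural cell markers none passed, and their summed level was 220 to 375 CPM in controls and 252 to 332 CPM in β-tetO-NICD libraries. Of 5 lymphatic markers none passed, and DESeq2 called 2, Lyve1 and Pdpn, both higher (adjusted p = 0.0305 and 0.0127, against 18.2% of all genes). Lyve1, a hyaluronan receptor shared by lymphatic endothelium and macrophages, had a log2 fold change of 0.99 (edgeR adjusted p = 0.0904), and Pdpn one of 2.40 (adjusted p = 0.0779) from 2 to 100 counts per library. Prox1, the defining factor of lymphatic endothelium that islet endocrine cells also express, had one of -0.35 (adjusted p = 0.421, and 0.03 with the length offset), Ccl21a had 0 counts in 3 of 8 libraries, and the secreted matrix protein gene Reln gave -0.01 (edgeR adjusted p = 0.988) and 0.53 with the offset. Of 10 macrophage and leukocyte markers tested 1 passed (10% against 6.76% of all genes), C1qa (0.95, adjusted p = 0.0273, and 0.43 with an adjusted p of 0.0637 with the length offset, where the leukocyte gene Ptprc passed instead, at 0.61 and an adjusted p of 0.0383). C1qa lost its call without control 1, 2 or 4 or without β-tetO-NICD 2, 4 or 5 (adjusted p at most 0.0932), with the length-trend class (0.0511), and in the 5 libraries with at most 1 count of Eif2s3y (0.75, adjusted p = 0.333). The summed level of the 11 macrophage and leukocyte markers was 181 to 229 CPM in controls and 256 to 355 CPM in β-tetO-NICD libraries without overlap, as for Vegfc, and their part in the Vegfc values was not tested. Without the complement genes C1qa, C1qb and C1qc, the sum of the other 8 overlapped, at 80.5 to 108.3 CPM in controls and 82.1 to 108.3 CPM in β-tetO-NICD libraries. None of the 7 fibroblast, 15 acinar or 7 duct markers passed. DESeq2 called 3 duct markers, Cftr, Krt19 and Spp1 (2 higher and 1 lower), and 1 acinar marker, Bhlha15 (lower), against 18.2% of all genes. Of 12 endocrine markers 2 passed (16.7% against 6.76% of all genes), both higher. Hhex, a factor of δ cells, was one of them (1.01, adjusted p = 0.0436), and it lost its call without control 1, 2 or 4, without β-tetO-NICD 2, 4 or 5 (adjusted p at most 0.127), with the length-trend class (0.0905), with the acinar or Eif2s3y covariate (0.0502 and 0.0693), and in the 5 libraries (0.71, adjusted p = 0.338). With the length offset 5 endocrine markers passed (against 10.5% of all genes), 2 higher and 3 lower. The 3 lower ones were the β cell hormone genes Ins1 (-1.21, adjusted p = 0.00478, from -0.65), Ins2 (-1.20, 0.00605, from -0.56) and Iapp (-1.21, 0.00538, from -0.59), none of which passed without the offset. The β cell factors Pdx1 and Nkx6-1 gave 0.04 each (-0.18 and 0.02 with the offset). Over all 12 endocrine markers the log2 fold change without the offset ran from -0.86 to 1.46, with 7 positive and 5 negative. The hormone genes of α and δ cells, Gcg (1.44, adjusted p = 0.0622) and Sst (1.46, adjusted p = 0.0619), missed the threshold, passed by DESeq2 (adjusted p = 0.000591 and 0.00233; Gcg also by limma-voom, 0.0394), and gave 1.03 and 0.83 with the offset.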

How the data were processed

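Islet RNA of 8 mice, 4 per group, was extracted by the authors, and stranded poly(A) libraries were pseudoaligned to the GRCm38 transcriptome with Kallisto. The authors deposited whole-number counts per gene symbol, not normalized. The Kallisto version, the annotation release and the way estimated counts were made whole are not given in the sources used here. A second deposited table holds the authors' own comparison (fold changes, p values and related statistics from limma) and was not used.

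Of the 8 columns 6 were matched to a sample by name, and β-tetO-NICD columns 4 and 5 only to their group, since the samples are titled 1 to 4. No other per-sample column was present. No 2 libraries of a group agreed within sampling noise (chi-square per gene at least 31.5). The analysis used edgeR 4.0.16 (R 4.3.3) on genes that reached 10 counts in 4 or more of the 8 libraries. TMM factors were applied, and groups were compared with the quasi-likelihood test without a covariate. Benjamini-Hochberg adjustment ran over all 15082 tested genes, with a threshold of 0.05, and adjusted p values in the text are from this test unless another is named. The SE of a log2 fold change is its size divided by the square root of F. The fits were tested on simulated data. The totals were 21701223 to 26413146 counts. For genes of a few CPM counting error can be as large as the differences between mice, and floors cover counting error only.

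The 37 members and all other lists were chosen with earlier results of these data known. All members are named, and values in every library are given for those that passed and for the most abundant of each role per kilobase. From the other lists the genes that passed, at most the 4 with the largest change per list and direction, and Cdh5 and Cldn5 were named. Figf, the neuropilins, the lymphatic markers, C1qb, C1qc and the genes that passed only with the length offset (Bnip3, Ddit4, Ptprc, Ins1, Ins2 and Iapp), and Pdx1, Nkx6-1, Gcg and Sst lie outside this rule and were chosen after their values had been seen, as were the further members given in every library (Angptl4, Egfl7, Flt1, Pecam1, Thbs1, Vwf and Pgf). Some genes of the other lists are not reported here by name.

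Transcript lengths and coordinates are from GENCODE M21 (GRCm38), matched by symbol. The length offset was a smooth trend (lowess, span 0.3) of each library's deviation from the gene mean on the length of the longest transcript. Upstream sequences are from RefSeq, and sequences of proteins were not used here. Alternatives were DESeq2 1.42.0, limma-voom (limma 3.58.1), other normalizations and filters on low counts, library sizes without the 10 genes with most counts, acinar and Eif2s3y covariates, the 5 libraries with at most 1 count of Eif2s3y, length offsets, a replicate block, and each library left out in turn.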

Additional observations from a re-analysis of the deposited data

Results flagged for a closer look

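In 4 of 74 groups of 4 libraries, 1 group for each member and condition, the highest or lowest library stood apart from the other 3 by Dixon's criterion (a gap over the whole range above its 95% critical value). Chance alone gives about 1 in 20 such groups, or 3.7 of 74. Pgf was lowest in control 4, at 4.30 CPM against 11.5 to 12.9 CPM in the other controls (ratio 0.839). Flt4 was lowest in control 3, at 8.90 CPM against 15.2 to 16.5 CPM (ratio 0.8294). Angpt1 was highest in control 2, at 2.15 CPM against 1.09 to 1.23 CPM (ratio 0.876). Calcrl was highest in β-tetO-NICD library 1, at 11.9 CPM against 5.89 to 6.68 CPM in the other β-tetO-NICD libraries (ratio 0.868).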

How the results depend on the processing

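Vegfc kept its direction under every setting tried, and it passed under every one except the 5 libraries with at most 1 count of Eif2s3y (log2 fold change 1.61, adjusted p = 0.0697), in which fewer samples were compared. The number of members called was 3 with upper-quartile normalization, 5 by DESeq2, 2 with the offset for the longest transcript and 0 in those 5 libraries (edgeR, where 0.719% of all genes passed), and 1 to 10 with 1 library left out, the 10 without β-tetO-NICD 1. Over all genes, 1158 were called with upper-quartile normalization, 2739 by DESeq2 and 1577 with the length offset. The length-trend class as a covariate gave 608 and the 5 libraries 104. With 1 library left out, 319 to 4954 genes were called, again the most without β-tetO-NICD 1. Of the 140 genes of the other lists, 12 were called, against 6.76% of all genes. These included all 5 genes of the Notch activity check (Notch1, Hes1, Hey1, Heyl and Hes5). DESeq2 called 25 of the 140 (against 18.2% of all genes), the 5 libraries gave 7 (against 0.719%), and fits with 1 library left out gave 6 to 37. The causes were not tested. The class covariate and the offset for the median transcript length were added after seeing the data.

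The replicate number as a block could be set only for numbers 1 and 2, which both groups share by label. Deviations of same-numbered libraries correlated by 0.276 (number 1) and -0.0901 (number 2). Controls 1 and 2 and differently numbered β-tetO-NICD libraries correlated by -0.246 to 0.163. The 2 shared numbers are too few to show whether the numbers pair the libraries. The block gave 2 called members (Vegfc and Thbs1), 970 genes and 13 of the other lists.

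No called gene among the members and the other lists changed its sign in any setting in which it was tested. Among the named genes that did not pass, 18 did, of which Vwf had been the farthest from 0 (-1.04), and the cause was not tested. In the 5 libraries the log2 fold change was 0.28 for Pecam1, 0.27 for Vwf, 0.31 for Erg, 0.042 for Kdr, 0.062 for Tek, 0.29 for Tie1, 0.14 for Cdh5, 0.12 for Nrp2, -0.20 for Nkx6-1, -0.014 for Pdx1 and 0.22 for Reln. With the length-trend class it was 0.10 for Pecam1, 0.11 for Erg, 0.13 for Kdr, 0.059 for Flt1, 0.026 for Tek, 0.092 for Tie1, 0.15 for Ednrb, 0.094 for Cdh5, 0.056 for Nrp1, 0.15 for Nrp2 and 0.69 for Reln. The median-length offset gave 0.16 for Pecam1, 0.055 for Kdr, 0.10 for Tek, 0.32 for Tie1, 0.18 for Ednrb, 0.048 for Nrp2 and 0.083 for Reln, and the longest-length offset 0.086 for Kdr, 0.060 for Flt1, 0.13 for Tie1, 0.049 for Nrp2, 0.033 for Prox1, -0.071 for C1qc, -0.18 for Pdx1 and 0.53 for Reln. Upper-quartile normalization gave 0.015 for Pecam1, 0.066 for Tie1 and 0.054 for Reln, and moved the median of all genes by 0.08. The Eif2s3y covariate gave 0.056 for Pecam1, -0.066 for Nos3, 0.25 for Edn1 and -0.024 for Nkx6-1. The acinar covariate gave -0.0020 for Nos3 and 0.0054 for Tie1, and a minimum in every library 0.018 for Tie1 and 0.0098 for Reln. With 1 library left out, values ran from -0.20 to 0.14 for Pecam1, -0.067 to 0.16 for Nos3, -0.28 to 0.070 for Erg, -0.17 to 0.14 for Tie1, -0.53 to 0.30 for Edn1, -0.059 to 0.31 for Nkx6-1, -0.074 to 0.18 for Pdx1 and -0.69 to 0.24 for Reln. With 4 libraries a group, a member that missed the threshold is not shown to be equal between groups, and Edn1 and Cldn5 rest on few counts.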
